A study of Mus musculus with 1 sample.

Results

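The genes encoding 10 glycolytic enzymes were examined in c-kit+ bone marrow (BM) cells of wild-type mice: Hk1, Hk2, Hk3, Gpi1, Pfkl, Aldoa, Gapdh, Pgk1, Pkm and Ldha. They were taken as a fixed list in the order of the pathway, and each symbol was matched to the Ensembl gene identifier of the deposited table through the GENCODE mouse annotation. They make up 10 of the 54532 genes in the table. The measured sample was 1 RNA-seq library, named Ctrl, from C57BL/6 mice of the wild-type genotype, made from bone marrow cells sorted for c-kit (CD117), a receptor of immature blood cells. The sample description adds a gate without lineage markers and without Sca1 (Lin-cKit+Sca1-). Ages and the number of mice pooled were not given in the sources used here. In the study Ctrl served as the reference for Gadd45g-deficient mice with a myeloproliferative neoplasm (MPN). These were heterozygous (Gadd45g+/-), with 1 copy of Gadd45g deleted in blood cells by Vav-Cre. The Gadd45g-deficient library was not analysed here, so no comparison between genotypes was made and no test was run. Gadd45g itself stood at 19.3 FPKM in Ctrl.

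Glycolysis converts glucose to pyruvate in the cytosol, and lactate dehydrogenase then turns pyruvate into lactate. Hexokinase traps glucose as its phosphate, phosphofructokinase commits the sugar to the pathway, and phosphoglycerate kinase and pyruvate kinase make ATP. Many steps have several isozymes, encoded by separate genes, and maturing neutrophils, red cells and stem cells of the bone marrow are all known to rely on this pathway.

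All values are FPKM, the fragments of a gene divided by its length in kilobases and scaled to the depth of the library. Multiplied by the length of all annotated exons of a gene, they returned whole fragments for 96.4% of the 21313 genes above 0 that had a length, within 0.01 of a whole number, and for 10 of the 10 enzyme genes. The recovered fragments summed to 17113323, more than the total of 15783891 that the FPKM values imply, and shares of the total are therefore given in FPKM. The intervals rest on the implied total. Intervals are 95% Wilson intervals of these fragments. With 1 library there was no replicate, so intervals cover counting error only, not the spread between mice.

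Markers of mature cells were abundant in the library. All 8 neutrophil markers were at 1 FPKM or more (480 to 26677 FPKM) and together held 12.7% of the summed FPKM, and all 7 erythroid markers (471 to 25466 FPKM) held 11.7%. The 8 progenitor markers ranged from 4.90 to 781 FPKM (median 153) and held 0.447%. Among them Elane stood at 781, Mpo at 434, Prtn3 at 379, Ctsg at 241 and Ms4a3 at 65.4 FPKM. Kit stood at 7.17, Cd34 at 5.22 and Flt3 at 4.90 FPKM. B cell markers were present for 6 of 6 genes (17.8 to 4323 FPKM) and held 1.56%, T cell markers for 5 of 5 (2.62 to 11.1 FPKM), macrophage markers for 5 of 5 and megakaryocyte markers for 4 of 4. Of 4 genes of muscle and neurons, 0 reached 1 FPKM and 2 were listed at 0. These values go against a sample of immature c-kit+ cells alone, so the enzyme levels below are those of the library and are assigned to no cell type. In bulk RNA, the number of cells of a type and the RNA per cell cannot be told apart.

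Sequence carried by Gapdh and by its copies is shown first, because the level listed for Gapdh stood far below that of its neighbours in the pathway. The mouse genome holds many processed pseudogenes of Gapdh, which are copies of its mRNA inserted elsewhere. A stretch of 60 bases in exon 4 of Gapdh (GRCm38/mm10, chr6:125162896-125162955, minus strand, bases 647 to 706 of the longest coding mRNA) occurred exactly in at least 68 other genes. It was chosen because no other coding stretch of this length within 1 exon was held exactly by more of the genes counted. Each line gives the mRNA strand from 5′ to 3′, and capitals mark bases that differ from Gapdh.
Gapdh: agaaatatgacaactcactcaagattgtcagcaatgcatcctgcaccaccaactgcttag
Gm5559: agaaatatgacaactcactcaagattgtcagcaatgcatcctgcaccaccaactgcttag
Gm12070: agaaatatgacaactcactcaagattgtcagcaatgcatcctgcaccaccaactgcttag
3000002C10Rik: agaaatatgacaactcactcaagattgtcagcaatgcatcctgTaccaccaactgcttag
Gm16177: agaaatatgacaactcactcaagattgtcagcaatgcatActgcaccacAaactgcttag
The first 2 pseudogenes, Gm5559 and Gm12070, are identical to Gapdh here, as are Gm7336 and Gm13394. Counting from 1 at the 5′ end of the stretch, 3000002C10Rik differs by C44T, and Gm16177 differs by C40A and C50A.

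All 10 enzyme genes were at 1 FPKM or more, against 22.2% of all 54532 genes and 46.8% of the 21995 protein-coding genes. At 10 FPKM or more stood 8 of the 10, against 21.2% of protein-coding genes, and at 100 FPKM or more stood 6 of the 10, against 2.06%. Their median level was 114 FPKM, while the median was 0.600 FPKM over all protein-coding genes and 8.66 FPKM over the 10290 protein-coding genes at 1 FPKM or more. Together the 10 genes held 0.232% of the summed FPKM. The order from the highest to the lowest was Pkm, Aldoa, Pgk1, Ldha, Hk3, Gpi1, Hk1, Hk2, Pfkl and Gapdh, and the intervals of 0 of the 9 neighbouring pairs overlapped. This order depends on the length by which fragments are divided. When the longest protein-coding transcript replaced all exons, 5 genes kept their place, and Gpi1 moved from the sixth to the third while Pgk1 moved from the third to the fifth. Pkm was the highest and Gapdh the lowest on either scale, but by transcript length the interval of Gapdh (11.1 to 14.0 FPKM) overlapped that of Hk2 (12.2 to 13.8), and that of Ldha (236 to 248) overlapped that of Gpi1 (242 to 251).

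**Figure D1:**
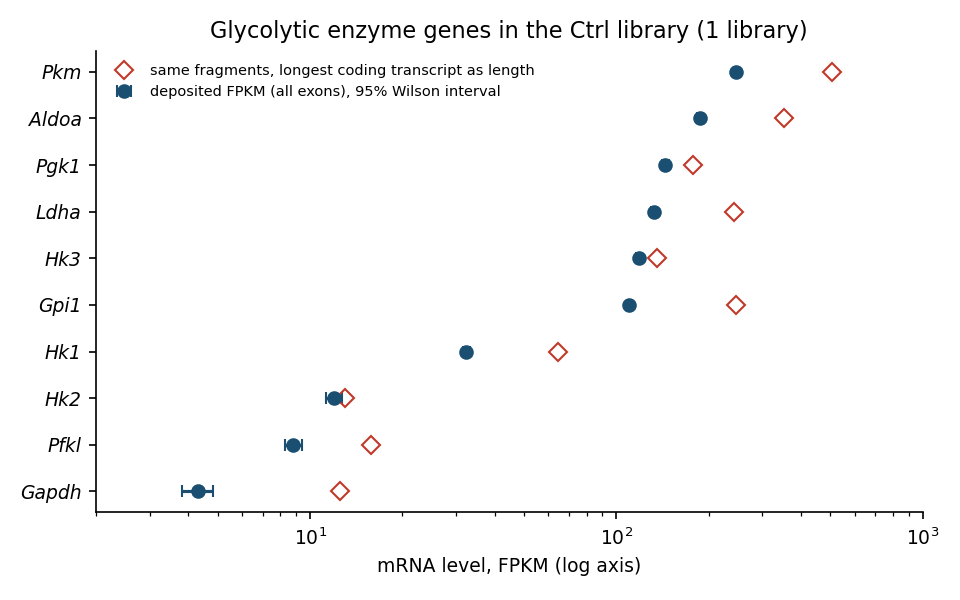
mRNA level of the 10 glycolytic enzyme genes in the Ctrl library, in FPKM on a log axis. Filled points are deposited values with 95% Wilson intervals (counting error only), and open diamonds are the same fragments divided by the length of the longest coding transcript. The deposited levels run from 4.29 FPKM for Gapdh to 246 FPKM for Pkm.

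Hexokinase catalyses the entry step, and Hk3 was the leading gene. Hk3 (ENSMUSG00000025877, chr13:55005985-55021385, minus strand), an isozyme known for its expression in myeloid cells, stood at 118 FPKM (116 to 121; 6874 fragments). Hk1 (ENSMUSG00000037012, chr10:62268855-62379908, minus strand), the broadly expressed isozyme that binds mitochondria, stood at 32.4 FPKM (31.4 to 33.4; 4362 fragments). Hk2 (ENSMUSG00000000628, chr6:82725025-82774454, minus strand), the isozyme of muscle and many tumours, stood at 12.0 FPKM (11.3 to 12.7; 1129 fragments). The intervals of the 3 genes did not overlap. Hk3 was 3.65 times as high as Hk1 (exact interval 3.52 to 3.79) and 9.87 times as high as Hk2 (9.27 to 10.5), and Hk1 was 2.70 times as high as Hk2 (2.53 to 2.89). The last ratio was 4.98 by transcript length and 3.86 in fragments, and that of Hk3 to Hk2 was 10.4 and 6.09. Of the summed FPKM of the 3 genes, Hk3 held 72.7% (72 to 73.4), Hk1 19.9% and Hk2 7.37%. The lead of Hk3 was smaller on other length scales, with a ratio to Hk1 of 2.09 by transcript length and 1.58 in fragments not divided by length. The hexokinase domain gene Hkdc1 was listed at 0, where 3 fragments would have given 0.0370 FPKM. Adpgk, which phosphorylates glucose with ADP, stood at 77.0 FPKM. Beside the Hk3 level, the 8 neutrophil markers summed to 54402 FPKM and the 8 progenitor markers to 1918 FPKM, and the part of mature neutrophils in it was not tested.

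The promoters of the highest and the lowest of the 3 hexokinase genes are shown for comparison. They are RefSeq sequences on GRCm38.p6, from 250 bases before to 50 after the annotated start, at chr13:55021336-55021635 for Hk3 and chr6:82774405-82774704 for Hk2. Both are on the minus strand and are written 5′ to 3′. Capitals mark ACGTG, the core of the hypoxia response element, read on either strand.
Hk3: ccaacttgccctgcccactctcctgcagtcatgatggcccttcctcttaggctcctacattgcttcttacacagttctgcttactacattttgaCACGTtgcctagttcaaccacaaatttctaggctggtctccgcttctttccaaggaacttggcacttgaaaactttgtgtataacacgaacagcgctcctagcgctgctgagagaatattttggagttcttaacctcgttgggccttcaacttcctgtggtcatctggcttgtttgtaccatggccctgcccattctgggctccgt
Hk2: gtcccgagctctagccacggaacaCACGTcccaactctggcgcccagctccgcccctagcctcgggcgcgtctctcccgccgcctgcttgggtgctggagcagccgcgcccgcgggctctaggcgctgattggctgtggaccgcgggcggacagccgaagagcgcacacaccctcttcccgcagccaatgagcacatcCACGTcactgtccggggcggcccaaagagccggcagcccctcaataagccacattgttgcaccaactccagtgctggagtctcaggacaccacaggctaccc
The Hk3 promoter had 49.0% GC, 7 CpG dinucleotides and 1 ACGTG core, while the Hk2 promoter had 67.3% GC, 25 CpG dinucleotides and 2 ACGTG cores. Hk1, between them in level, has 2 promoters in the set, with 1 and 20 CpG dinucleotides. Which of them was in use was not measured, so CpG content could not be set against level over the 3 genes. Over all 32851 RefSeq mouse promoters of this length, the median was 52.7% GC and 7 CpG.

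All 10 enzyme genes matched a promoter in this set, with 15 promoters in all, whose median was 62.3% GC and 21 CpG. The ACGTG core, searched on both strands, was found in at least 1 promoter of 8 genes, all but Gpi1 and Pfkl. It was found in 9 of the 15 promoters and in 19.6% of all promoters, or 21.8% of 27025 genes. The Ldha promoter at chr7:46845554-46845853 held the most, with 3, a CACGTG counted once. CACGTG, the E-box, which contains ACGTG, was found for 1 gene, Ldha, against 8.09% of all genes. GAGGAA, a core of ETS family sites, was found for Aldoa, Hk1 and Hk3, against 31.3% of all genes, and TATAAA for 0 of the 10, against 15.7%. Matches describe letters in these windows only. ACGTG itself holds a CpG, of which the median was 21 in these promoters and 7 over all promoters. The shares were not matched for CpG content or for the number of promoters per gene. Binding was not measured.

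Gpi1 (ENSMUSG00000036427, chr7:34201330-34230336, minus strand), phosphoglucose isomerase, which converts glucose phosphate to fructose phosphate, stood at 110 FPKM (108 to 112; 11222 fragments). It is the single gene of its step in the lists. Gpi1 ranked second in fragments and sixth in FPKM, since its exons cover 6452 bases while its longest coding transcript has 2884. Of its exon bases, 11.5% overlap another gene, Gm26762, and the strand setting of the counting was not given in the sources used here.

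Phosphofructokinase was a low step. Pfkl (ENSMUSG00000020277, chr10:77986947-78010083, minus strand), the liver-type subunit, stood at 8.82 FPKM (8.27 to 9.40; 929 fragments). The muscle-type subunit gene Pfkm stood at 11.4 FPKM (10.6 to 12.4; 603 fragments) and the platelet-type Pfkp at 4.71 FPKM (4.43 to 5.01; 996 fragments). The 3 genes summed to 25.0 FPKM, less than the 110 FPKM of the step before and the 188 FPKM of the aldolase step after. Pfkl held 35.3% of the sum (33.3 to 37.3), Pfkm 45.8% and Pfkp 18.9%. Which subunit gene led could not be settled, since the order turned with the length used. The ratio of Pfkm to Pfkl was 1.30 by FPKM (1.17 to 1.44), 0.841 by transcript length and 0.649 in fragments. By transcript length Pfkl, Pfkp and Pfkm held 35.6%, 34.4% and 30.0%.

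Aldoa (ENSMUSG00000030695, chr7:126795234-126800751, minus strand), the aldolase of muscle and red cells, which splits the sugar into triose phosphates, stood at 187 FPKM (183 to 191; 8604 fragments). Aldoc, the brain-type isozyme, stood at 0.582 FPKM (30 fragments), and Aldoa held 99.7% of the summed FPKM of both. The symbol Aldoa is carried by a second identifier, ENSMUSG00000114515 at chr7:126800790-126809108, which stood at 1.43 FPKM (18 fragments). The identifier with most bases within the RefSeq Aldoa gene was used. Tpi1, triosephosphate isomerase, which interconverts the triose phosphates, stood at 63.0 FPKM (60.7 to 65.4).

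Gapdh (ENSMUSG00000057666, chr6:125161715-125166467, minus strand), which oxidises glyceraldehyde phosphate, was the lowest of the 10 genes, at 4.29 FPKM (3.82 to 4.83; 280 fragments). As many as 33.6% of protein-coding genes were at or above this level. The gene is widely used as a reference for mRNA levels, and it served as such for qRT-PCR in the study. It stood 14.7 times lower than Tpi1, in the step before (exact interval 13.0 to 16.7), and 33.7 times lower than Pgk1, in the step after (29.9 to 38.1). By transcript length these ratios were 8.64 and 14.2, and in fragments 9.78 and 18.3. Pkm was 57.4 times higher than Gapdh (51.0 to 64.8), or 40.5 times by transcript length. Gapdhs, the isozyme of sperm, stood at 0.708 FPKM (0.448 to 1.12; 18 fragments), so the step summed to 5.0 FPKM, of which Gapdh held 85.8% (79.0 to 90.7).

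**Figure D2:**
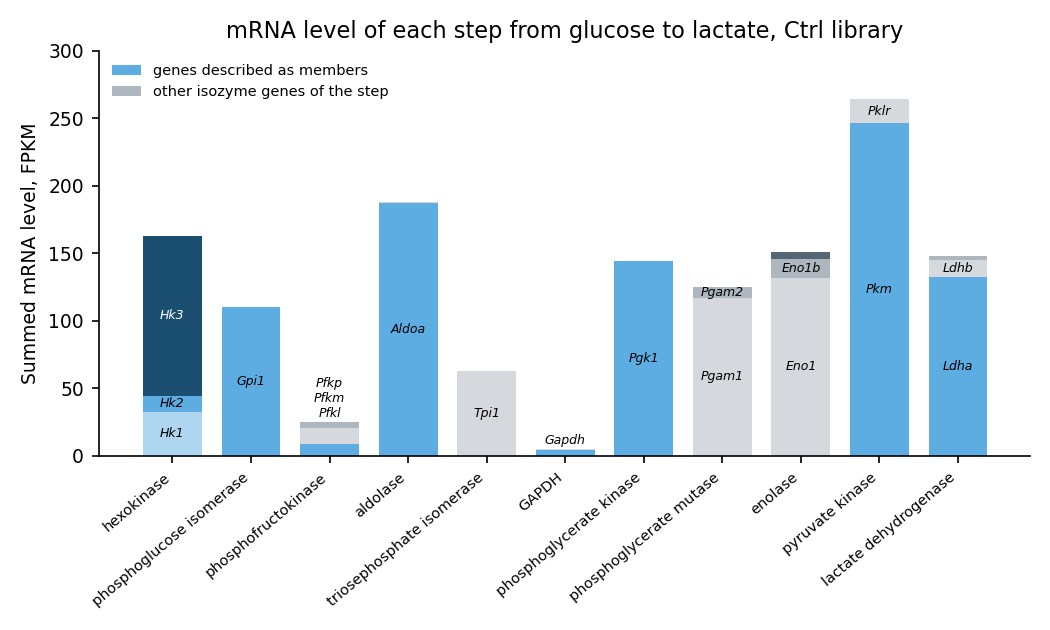
Summed mRNA level, in FPKM, of the genes of each of the 11 steps from glucose to lactate in the Ctrl library. Bars are stacked by gene, blue for the enzyme genes listed here as members and grey for other isozymes. The GAPDH step sums to 5.0 FPKM and the phosphofructokinase step to 25.0 FPKM, while the other 9 steps lie between 63.0 and 264 FPKM.

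Pseudogenes of Gapdh carried more fragments than Gapdh. A search of annotated transcripts with the Gapdh mRNA (at least 85% identity over at least 300 bases) found 261 pseudogenes, of which 70 had at least 95% identity and 23 at least 99%. In the table, 260 had a value and 76 were above 0. These summed to 66.0 FPKM and 1099 fragments, 3.93 for each fragment on Gapdh. Gm5559 (chr5:95861714-95862715, 99.9% identity) stood at 15.3 FPKM with 242 fragments. Gm12070 (chr11:26786633-26787634, 99.9%) stood at 10.9 FPKM with 173, and Gm7336 (chr7:51746647-51747878, 99.8%) at 10.7 FPKM with 208. Gm13394 (chr2:28933610-28934609, 99.9%) stood at 6.65 FPKM with 105. These 4 pseudogenes were the ones listed above Gapdh itself. Copies with at least 95% identity held 59.2 of the 66.0 FPKM, but level varied widely among copies of like identity. Gm12671, at 100% identity, stood at 0.126 FPKM with 2 fragments, and Gm12537 and Gm12033, at 99.9%, at 0.316 FPKM each, while Gm9522, at 85.8%, stood at 2.05 FPKM. The copies with mismatches in the stretch printed above, 3000002C10Rik and Gm16177, stood at 0.605 and 0.441 FPKM. They were printed as the highest copies below Gapdh with a few mismatches there. Exact copies below Gapdh were passed over, so the printed lines do not compare the levels of exact and mismatched copies. With the fragments of its pseudogenes added, Gapdh would have 1379 fragments and 61.5 FPKM by transcript length, against 12.5 FPKM alone. It would rank eighth of the 10, next below Hk1 at 64.6 FPKM (62.7 to 66.5), but no interval was set on the sum. The sum takes every copy down to 85% identity and lacks any fragments dropped in counting. It is therefore not a corrected level of Gapdh mRNA.

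**Figure D3:**
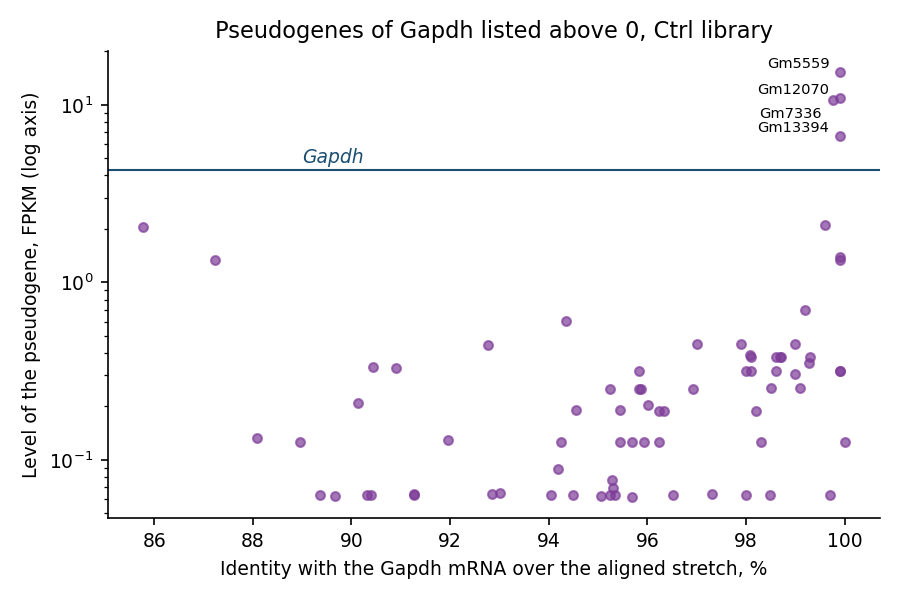
Level of the 76 Gapdh pseudogenes above 0 in the Ctrl library, in FPKM on a log axis, against their identity with the Gapdh mRNA in percent. The line marks Gapdh at 4.29 FPKM. The 4 pseudogenes above the line, from 6.65 to 15.3 FPKM, have identities from 99.8% to 99.9%.

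Fragments that match several genes equally well can be dropped, split or assigned to 1 gene, and how they were treated was not given in the sources used here. The share of 100-base windows of the longest coding mRNA that occur exactly in a transcript of another gene was therefore set beside the levels. It was 78.0% for Gapdh and 100% within its coding sequence. It was 67.0% for Pgk1, again 100% within the coding sequence, 9.82% for Pkm, 7.40% for Gpi1, 1.39% for Hk1 and 1.28% for Ldha. For Hk2, Hk3, Pfkl and Aldoa it was 0. Pgk1 stood at 145 FPKM. The share does not count how many other genes hold a window. Among the enzymes outside the 10 genes, Eno1 stood at 132 FPKM with 59.0% of windows shared, and Pgam1 at 117 FPKM with 39.7%. Pgk1 has 6 pseudogenes by the same search, of which 1 was above 0, at 4.19 FPKM and 83 fragments, or 0.0162 for each fragment on Pgk1. Gapdh has 261, of which 76 were above 0, with 3.93 fragments for each fragment on Gapdh. The part of shared sequence in the low Gapdh level was not tested.

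**Figure D4:**
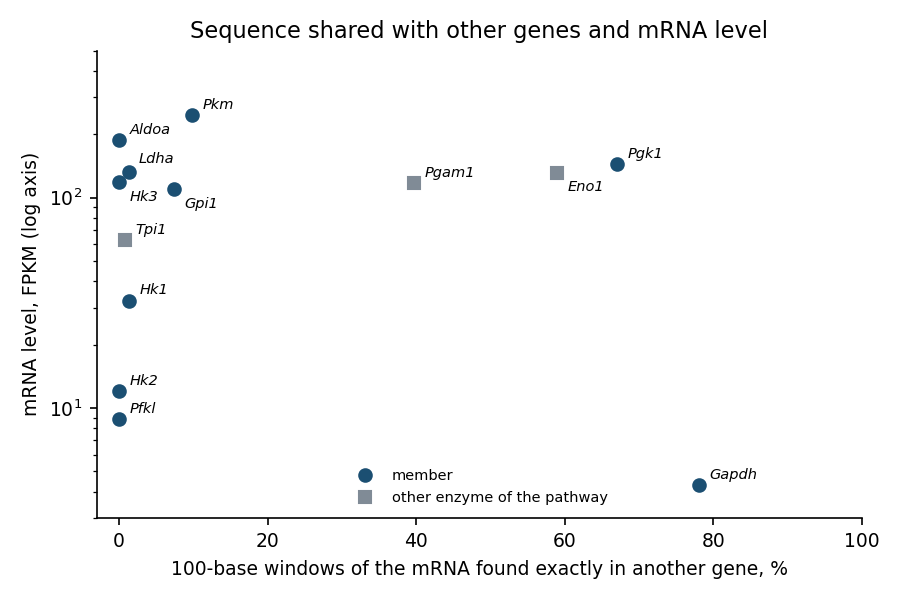
mRNA level in FPKM (log axis) against the percent of 100-base windows of the mRNA that occur exactly in another gene, for the 10 enzyme genes (circles) and Tpi1, Pgam1 and Eno1 (squares) in the Ctrl library. Gapdh, at 78.0%, stands at 4.29 FPKM and Pgk1, at 67.0%, at 145 FPKM.

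Pgk1 (ENSMUSG00000062070, chrX:106187100-106203699, plus strand), phosphoglycerate kinase, makes the first ATP of the pathway and stood at 145 FPKM (141 to 149; 5121 fragments). It held the whole of its step, as the testis isozyme gene Pgk2 was listed at 0, where 3 fragments would have given 0.117 FPKM. In the following steps, phosphoglycerate mutase Pgam1 stood at 117 FPKM and Pgam2, the muscle form, at 7.99 FPKM. Among the enolases, Eno1 stood at 132 FPKM (129 to 134), Eno1b at 13.6, Eno3 at 5.39 and the neuronal Eno2 at 0.0404 FPKM. The values of Pgam1 and Eno1b did not return whole fragments, so no interval is given for them.

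Pkm (ENSMUSG00000032294, chr9:59656368-59679375, plus strand), pyruvate kinase, makes pyruvate and ATP and was the highest of the 10 genes. It stood at 246 FPKM (243 to 250; 19436 fragments), and 0.714% of protein-coding genes were at or above this level. Its splice forms, known as M1 and M2, share 1 gene value here and were not separated. Of its exon bases, 15.3% overlap Gm49759. Pklr, the pyruvate kinase gene of liver and red cells, stood at 18.1 FPKM (16.9 to 19.3; 923 fragments), so that Pkm held 93.2% of the step and was 13.6 times as high as Pklr (12.8 to 14.6), or 25.1 times by transcript length. Ldha (ENSMUSG00000063229, chr7:46841475-46855627, plus strand), the muscle-type lactate dehydrogenase subunit, which favours lactate, stood at 133 FPKM (130 to 136; 6935 fragments). It was 10.9 times as high as Ldhb, the heart-type subunit, at 12.2 FPKM (exact interval 9.68 to 12.2), or 16.4 times by transcript length and 22.9 times in fragments, and held 89.8% of the step. Ldhc, the testis form, stood at 2.93 FPKM, and Ldhd, which acts on D-lactate, at 0.0951 FPKM.

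The wider list held 46 further genes of the pathway, its regulation and its branches. Of these, 36 were at 1 FPKM or more, against 46.8% of protein-coding genes, 22 at 10 or more, against 21.2%, and 5 at 100 or more, against 2.06%, and 4 were listed at 0, with a median of 8.89 FPKM. The highest was Bpgm, which makes the bisphosphoglycerate that lowers the oxygen affinity of haemoglobin in red cells. It stood at 371 FPKM (366 to 376), 1.51 times the level of Pkm (1.48 to 1.53), or 1.18 times by transcript length. Beside Bpgm and Pklr, the 7 erythroid markers summed to 50289 FPKM, and the part of erythroid cells in these levels was not tested. G6pdx and Pgd, which send glucose phosphate into the pentose phosphate pathway, stood at 121 (117 to 124) and 109 FPKM (107 to 111). How they stood to Gpi1, whose enzyme uses the same glucose phosphate as that of G6pdx, turned with the length used. By FPKM the interval of G6pdx lay above and that of Pgd overlapped that of Gpi1 (108 to 112), while by transcript length Pgd (315 FPKM) was above and G6pdx (140 FPKM) below Gpi1 (247 FPKM).

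Among glucose transporters, Slc2a3 (GLUT3) led at 52.2 FPKM, 5.84 times as high as Slc2a1 (GLUT1) at 8.93 FPKM (5.33 to 6.42), or 9.94 times by transcript length and 12.1 times in fragments. Slc2a6 stood at 22.6 and Slc2a4 at 8.76 FPKM, and Slc2a2, the transporter of liver and pancreas, was listed at 0. The monocarboxylate transporters that carry lactate stood at 56.5 FPKM for Slc16a1, 32.9 for Slc16a3 and 0.883 for Slc16a7. Among the enzymes that set the level of the phosphofructokinase activator, Pfkfb4 stood at 30.7 FPKM, 2.58 times as high as Pfkfb3 at 11.9 FPKM (2.41 to 2.76) and 1.66 times in fragments, while Tigar, Pfkfb2 and Pfkfb1 were at 2.37, 1.63 and 1.01 FPKM. The reverse step, fructose bisphosphatase, was low, with Fbp1 at 1.23 FPKM and Fbp2 listed at 0. For the entry of pyruvate into mitochondria and its oxidation, Pdhb stood at 26.0, Pdha1 at 24.0, Mpc2 at 11.4, Dlat at 8.86 and Mpc1 at 5.33 FPKM, all below Ldha. The kinases that inhibit pyruvate dehydrogenase were led by Pdk3 at 16.6 FPKM, with Pdk1 at 5.15, Pdk2 at 3.26 and Pdk4 at 0.0902. Hif1a, the hypoxia-inducible factor gene, stood at 11.1 FPKM.

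**Figure D5:**
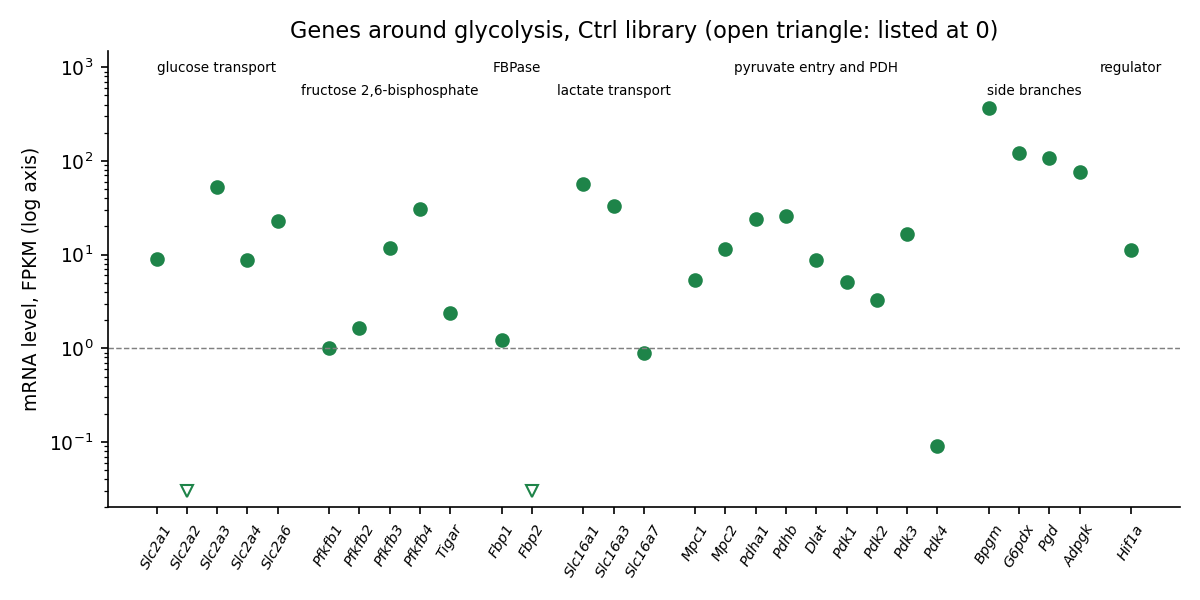
mRNA level, in FPKM on a log axis, of genes around glycolysis in the Ctrl library, grouped by role. The dashed line marks 1 FPKM and open triangles mark genes listed at 0. Bpgm is the highest at 371 FPKM, and Slc2a2 and Fbp2 are listed at 0.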

How the data were processed

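BM cells sorted for c-kit from mice of the wild-type genotype were lysed in TRIzol and sequenced on an Illumina instrument (1 library, Ctrl). The authors deposited FPKM values, 1 per Ensembl gene. The submitters' processing notes name HISAT2 2.0.5, featureCounts 1.5.0-p3 and mm10, with no role or order. The annotation, the strand setting and the treatment of fragments matching several genes are not given in the sources used here. FPKM is lowered for all genes alike where a few take many fragments. With the fragments of the 10 most abundant genes taken from the implied total, every value would be 1.10 times higher. The recovered fragments sum to more than that total, so this factor is approximate.

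Names, lengths and coordinates came from GENCODE M21 on GRCm38, which held 54495 of the 54532 identifiers. FPKM values were multiplied by exon length to recover fragments. Tested on simulated FPKM, this step returned the true fragments for 100% of 19269 genes given the right length. Genes given a wrong length were not scored, so this did not test the lengths behind the deposited values. Intervals are Wilson intervals for levels and exact Clopper-Pearson intervals for ratios, at 95%. Pseudogenes were found with blastn 2.17.0 (85% identity, 300 bases). Promoters are RefSeq sequences. Calculations used Python 3.11.15, pandas 2.3.3 and scipy 1.17.1. The 10 genes and all lists were chosen with earlier results of these data known. Named genes are the 10 enzymes and the listed genes of the wider pathway, some of which are not reported here. Alternatives were other length definitions, totals, minima and identity limits. No sample was left out of the analysis and no test was run, since 1 library holds no replicate.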

Additional observations from a re-analysis of the deposited data

How the results depend on the processing

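Of 33 alternatives, 11 left a value within its 95% interval or a count within 1.5 times, 20 did not and 2 reversed a direction. For shared windows the interval was a binomial one over windows, which overlap each other. Both reversals, from alternatives added after seeing the data, concern phosphofructokinase, where the ratio of Pfkm to Pfkl fell from 1.30 to 0.649 in fragments not divided by length and to 0.841 by the longest coding transcript. In fragments, the Hk3 share of Hk1, Hk2 and Hk3 was 55.6%, the ratio of Hk3 to Hk1 1.58, the ratio of the highest to the lowest gene 69.4, and the shares of Gapdh, Pkm and Ldha in their steps 94.0%, 95.5% and 94.9%. By transcript length, the median of the 10 genes was 157 FPKM, the Hk3 share 63.6%, the ratio of Hk3 to Hk1 2.09, the ratio of the highest to the lowest gene 40.5, and the shares of Aldoa, Gapdh, Pkm and Ldha 99.8%, 94.1%, 96.2% and 93.0%. The construction of these alternatives, another length for the same fragments, makes the change. Without the 10 most abundant genes in the implied total, the median was 126 FPKM. At a minimum of 10 FPKM, 22 genes of the wider list remained. Other alternatives added after seeing the data gave 70 Gapdh pseudogenes and 59.2 FPKM at 95% identity, and 74.0% of Gapdh windows shared at 150 bases. With its pseudogenes added, the Gapdh share of its step was 98.7% by transcript length, where Gapdh alone held 94.1%. Depth limits the genes with few fragments, such as Gapdhs and Aldoc. No paired analysis was possible because 1 library holds no pairs, and with 1 replicate none was left out.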
